A study of Mus musculus with 14 samples.

Results

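Ketone bodies are fuel molecules, chiefly acetoacetate and beta-hydroxybutyrate, that are made from fatty acids when glucose is scarce and are burned in mitochondria. The expression of 6 genes of ketone body synthesis and use was examined in bulk RNA sequencing of mouse kidneys after acute kidney injury (AKI). They were Bdh1, Oxct1, Acat1, Slc16a1, Pdk4 and Angptl4, taken by symbol from a list drawn up for this work, and they are 6 of the 24411 genes counted in the files. All kidneys came from male C57/B6 mice of 8 weeks, and nothing in the labels names a transgene or a deletion. The injury was renal ischemia/reperfusion injury (IRI), in which blood flow to the kidney is stopped and restored. There were 4 libraries at day 0, 5 at day 1 and 5 at day 3 after IRI, and day 0 kidneys are marked as controls in their names without a word on sham surgery. The labels do not say that each library came from a separate animal, so p-values measure only the spread between these libraries, which may be technical. Levels are given as CPM, the reads of a gene relative to all reads on genes in its library, scaled by the TMM method so that libraries can be compared.

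Acetoacetate and beta-hydroxybutyrate are converted into each other by the dehydrogenase encoded by Bdh1. To be used as fuel, acetoacetate receives coenzyme A from the transferase encoded by Oxct1, the step that commits it to oxidation, and the thiolase encoded by Acat1 then splits the product into acetyl-CoA for the citric acid cycle. The same thiolase also works in the opposite direction at the start of synthesis. Slc16a1 encodes the monocarboxylate transporter MCT1, which carries ketone bodies, lactate and pyruvate across the cell membrane. Pdk4 encodes a kinase that switches off pyruvate dehydrogenase and so spares glucose carbon, and Angptl4 encodes a secreted inhibitor of lipoprotein lipase. Pdk4 and Angptl4 are known targets of the fatty acid receptors of the PPAR family and rise in many tissues during fasting. Kidney proximal tubule cells normally burn fatty acids and ketone bodies rather than glucose.

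Between 12485579 and 20476979 reads per library fell on genes, and all 6 genes were among the 14300 genes that passed the filter on low counts. Each library name holds a number, written with 3 digits for replicates 1 and 2 at day 1 and replicates 1, 2 and 3 at day 3. The remaining names, those of day 0 among them, use 1 digit. What this format marks is not given in the sources used here, and for day 0 it cannot be told apart from the day. Replicate 2 of day 3 lay nearest to day 0 among the day 3 libraries for Bdh1, Oxct1, Acat1, Slc16a1 and Pdk4, and results at day 3 are therefore also given without it. The kidney identity of the libraries was plain from markers of the proximal tubule, whose 13 genes summed to between 52988 and 55411 CPM at day 0. The 7 markers of injured tubules summed to between 1174 and 1543 CPM at day 0 and to between 6667 and 44400 CPM in the libraries of days 1 and 3.

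The promoters of Slc16a1 and Pdk4 are shown because these genes changed upward and because RefSeq gives them a start site with mostly non-exonic sequence before it. The Pdk4 line ends 31 bases before the start, since those bases lie in annotated exon. Each line is written 5′ to 3′ on the strand of the gene, and capitals mark a motif found by search. In Slc16a1 the capitals are the E box CACGTG, which holds the hypoxia element ACGTG on both strands, from position -200 to -195 before the RefSeq start (chr3:104638414-104638663, plus strand, GRCm38.p6). In Pdk4 they are ATTGG, the reverse strand of the CCAAT box, from -131 to -127 (chr6:5496310-5496528, minus strand, GRCm38.p6).
Slc16a1: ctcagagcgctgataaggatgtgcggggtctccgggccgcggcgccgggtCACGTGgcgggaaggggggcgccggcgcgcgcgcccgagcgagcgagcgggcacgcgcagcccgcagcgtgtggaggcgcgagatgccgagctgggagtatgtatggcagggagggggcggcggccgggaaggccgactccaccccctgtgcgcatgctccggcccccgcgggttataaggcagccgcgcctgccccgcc
Pdk4: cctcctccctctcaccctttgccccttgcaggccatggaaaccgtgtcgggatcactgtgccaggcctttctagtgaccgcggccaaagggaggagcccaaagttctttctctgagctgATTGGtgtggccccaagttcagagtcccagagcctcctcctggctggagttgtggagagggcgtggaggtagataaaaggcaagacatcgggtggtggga
The motifs searched on both strands in the 250 bases before each start were the paired-repeat PPAR element, the single nuclear receptor site AGGTCA, the glucocorticoid element, the FoxO site TGTTTAC, the hypoxia element ACGTG, the E box CACGTG, the TATA box TATAAA, the CCAAT box and the Sp1 box GGGCGG. Of 32536 RefSeq promoters of that length, 6.04% held the E box, 16.7% the hypoxia element, 33.8% the CCAAT box and 33.0% the Sp1 box. The nuclear receptor site was in 4567 of them, the TATA box in 12.3%, the FoxO site in 3.17%, the glucocorticoid element in 0.390% and the PPAR element in 0.341%. Slc16a1 also held GGGCGG from -85 to -80, left in lower case. The Oxct1 window held ACGTG from -97 to -93 but lies in annotated exon, and none of the 9 motifs was found at Bdh1. The table has no entry for Acat1 and Angptl4. A match is a description of letters and not evidence of binding.

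At day 1 and at day 3 the 3 enzyme genes of ketone body use were lower than at day 0, while Slc16a1, Pdk4 and Angptl4 were higher. By edgeR's quasi-likelihood test with Benjamini-Hochberg adjustment over all genes tested, 6 of the 6 genes had an adjusted p under 0.05 at day 1, against 42.1% of all genes, and 6 of 6 at day 3, against 33.3%. The 3 that were higher compare with 23.3% of all genes called higher at day 1 and 19.5% at day 3, and the 3 that were lower with 18.7% and 13.8%. The groups did not overlap for 6 of the 6 genes at day 1 (42.0% of all genes) and for 5 of 6 at day 3 (33.4% of all genes), the exception being Slc16a1. The median size of the fitted log2 fold change was 1.53 for these genes and 0.54 for all genes at day 1, and 2.20 and 0.46 at day 3. The 6 genes were chosen with earlier results of these data known. These counts and sizes therefore cannot test whether such genes change more than others. Both comparisons share the 4 day 0 libraries. In bulk tissue, fewer cells of a type and less RNA per cell cannot be told apart.

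**Figure D1:**
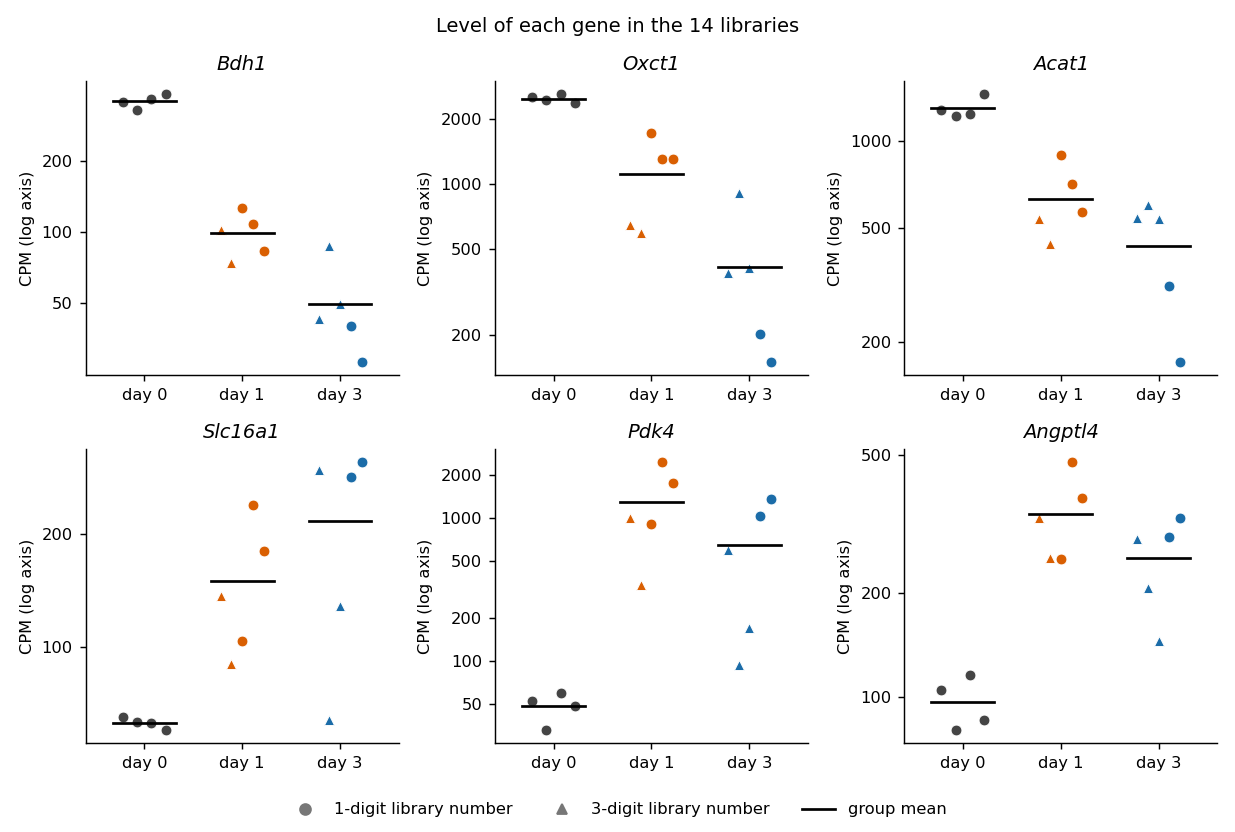
CPM on a log axis for each of the 6 genes, 1 point per library, with circles for 1-digit and triangles for 3-digit library numbers and a black line at the mean of each day. The 4 day 0 points sit above all later points for Bdh1, Oxct1 and Acat1 and below all later points for Pdk4 and Angptl4, and for Slc16a1 the lowest day 3 point, 63.4 CPM, falls among those of day 0.

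Bdh1 (chr16:31422280-31458901, plus strand, GRCm38), the dehydrogenase, was lower at day 1 and lower again at day 3. At day 0 Bdh1 stood at 356, 331, 365 and 383 CPM. At day 1 its 5 libraries held 102, 74.0, 127, 109 and 83.3 CPM. At day 3 they held 42.8, 87.5, 49.6, 40.2 and 28.2 CPM. Each library of days 1 and 3 was below each library of day 0, and at day 3 only replicate 2 was within the range of day 1. The fitted level fell 3.62-fold at day 1 (log2 fold change -1.86, SE 0.26, adjusted p = 0.000144 by edgeR) and 7.22-fold at day 3 (log2 fold change -2.85, SE 0.27, adjusted p = 1.08e-05 by edgeR). An exact two-sided permutation test gave p = 0.00794 for both, the smallest that 4 against 5 libraries allow. Leaving out replicate 2 of day 3 moved this last value to -3.16. An antisense gene of the annotation shares 533 exon bases with Bdh1, but the counts used keep the strand.

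Oxct1 (chr15:4026383-4155344, plus strand), the transferase that commits ketone bodies to oxidation, was the most abundant of the 6 genes at day 0. Its day 0 libraries held 2527, 2446, 2603 and 2387 CPM. At day 1 Oxct1 stood at 649 and 598 CPM in the 3-digit libraries and at 1718, 1302 and 1316 CPM in the 1-digit libraries. At day 3 the 3-digit libraries held 389.8, 911 and 410.3 CPM and the 1-digit libraries 203 and 151 CPM. No library of days 1 and 3 reached the lowest day 0 value, and the ordering of the formats was opposite on the 2 days. Oxct1 fell 6.03-fold at day 3 (log2 fold change -2.59, SE 0.45, adjusted p = 0.000975 by edgeR) and by -3.11 on the log2 scale without replicate 2 of day 3. At day 1 the fall was 2.23-fold (log2 fold change -1.16, SE 0.44, adjusted p = 0.0460 by edgeR). This call at day 1 was lost in edgeR's test when any 1 of 10 libraries was left out, namely each of day 0, replicates 1, 2, 4 and 5 of day 1 and replicates 1 and 3 of day 3, with adjusted p from 0.0521 to 0.0868 in those fits and log2 fold changes between -1.22 and -0.9995. With the number format in the model the day 1 fall was called in each format, as a log2 fold change of -0.79 for the 1-digit libraries (adjusted p = 0.0189 by edgeR) and as a 3.99-fold fall for the 3-digit libraries (adjusted p = 0.000385 by edgeR). The 1-digit call was lost without replicate 4 (-0.71, adjusted p = 0.0730) or replicate 5 (-0.72, adjusted p = 0.0693) of day 1. The gene BC037032 on the opposite strand shares 467 exon bases with Oxct1 and had 1 to 33 reads per library.

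Acat1 (chr9:53580522-53610382, minus strand), the thiolase, was lower than day 0 on both days, by less than Bdh1 or Oxct1 in the fit by day. In the 1-digit libraries of day 1 the order with Oxct1 was reversed, at -0.84 for Acat1 and -0.79 for Oxct1. At day 0 Acat1 stood at 1281, 1225, 1235 and 1449.8 CPM. At day 1 the values were 535, 440.0, 893, 708 and 567 CPM. At day 3 they were 540.2, 600.3, 535, 313 and 171 CPM. All libraries of days 1 and 3 were below day 0, and days 1 and 3 overlapped. Acat1 fell 2.06-fold at day 1 (log2 fold change -1.05, SE 0.30, adjusted p = 0.0137 by edgeR) and 3.00-fold at day 3 (log2 fold change -1.59, SE 0.31, adjusted p = 0.00178 by edgeR), and by -1.73 on the log2 scale at day 3 without replicate 2.

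Slc16a1 (chr3:104638668-104658462, plus strand), which encodes MCT1, rose after IRI with a wide spread between libraries. Day 0 libraries lay close together, at 64.9, 62.7, 62.4 and 59.7 CPM. At day 1 Slc16a1 stood at 137, 89.6, 104, 239 and 180.1 CPM. At day 3 it stood at 297, 63.4, 129, 285 and 312 CPM. All day 1 libraries and 4 of 5 day 3 libraries were above day 0, and replicate 2 of day 3 was inside the day 0 range. The rise was 2.40-fold at day 1 (log2 fold change 1.26, SE 0.40, adjusted p = 0.0219 by edgeR) and 3.48-fold at day 3 (log2 fold change 1.80, SE 0.41, adjusted p = 0.00504 by edgeR). Leaving out replicate 2, 3 or 4 of day 0 or replicate 4 of day 1 ended the day 1 call, with log2 fold changes from 1.03 to 1.27 and adjusted p from 0.0501 to 0.0594 by edgeR. Without replicate 2 of day 3 the rise at day 3 was 2.03 on the log2 scale.

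Pdk4 (chr6:5483351-5496309, minus strand), the kinase that blocks pyruvate dehydrogenase, showed the greatest change of the 6 genes against day 0 in the fit by day. In the 3-digit libraries of day 3 alone, Bdh1 changed about as much, at -2.58 on the log2 scale against 2.56 for Pdk4. At day 0 its libraries held 52.6, 32.8, 59.9 and 48.4 CPM. At day 1 Pdk4 stood at 999.7, 337, 910.3, 2457 and 1763 CPM. At day 3 it stood at 593, 93.2, 169, 1032 and 1356 CPM. Every library of days 1 and 3 was above every library of day 0, and the day 3 libraries spread widely. The fitted rise was 26.7-fold at day 1 (log2 fold change 4.74, SE 0.80, adjusted p = 0.000550 by edgeR) and 13.4-fold at day 3 (log2 fold change 3.74, SE 0.76, adjusted p = 0.00244 by edgeR). Of all genes tested, 99.1% had a smaller absolute log2 fold change at day 1. Leaving out replicate 2 of day 3 gave 4.02 in place of 3.74.

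Angptl4 (chr17:33773750-33781830, minus strand), the lipoprotein lipase inhibitor, rose less than Pdk4 and varied less between libraries. At day 0 Angptl4 stood at 105, 80.1, 116 and 85.6 CPM. At day 1 the values were 329.7, 253, 249.8, 477 and 376 CPM. At day 3 they were 287, 206, 145, 290.2 and 329 CPM. Neither day overlapped with day 0, and days 1 and 3 overlapped with each other. Angptl4 rose 3.49-fold at day 1 (log2 fold change 1.80, SE 0.26, adjusted p = 0.000179 by edgeR) and 2.61-fold at day 3 (log2 fold change 1.38, SE 0.25, adjusted p = 0.00131 by edgeR). Without replicate 2 of day 3 it was 1.45 on the log2 scale.

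**Figure D2:**
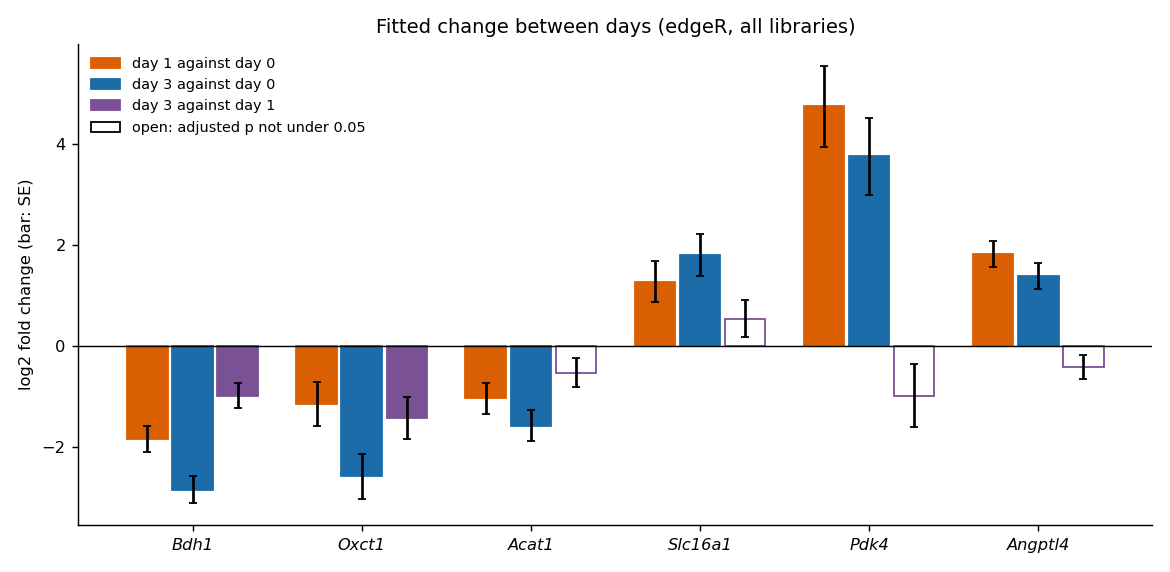
Fitted log2 fold change of each gene in the 3 comparisons of days, with bars of 1 standard error. Filled columns have an adjusted p under 0.05 by edgeR and open columns do not. The columns for Bdh1, Oxct1 and Acat1 against day 0 point down, from -1.05 to -2.85, and those for Slc16a1, Pdk4 and Angptl4 point up, from 1.26 to 4.74.

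From day 1 to day 3, Bdh1 and Oxct1 fell further and the other genes did not pass the test. By edgeR's test, 2 of the 6 genes were called, both lower, against 15.9% of all genes called in either direction and 7.39% called lower. The groups of these days overlapped for all 6 genes, and 7.61% of all genes had groups that did not overlap. Bdh1 fell by 0.99 on the log2 scale (SE 0.24, adjusted p = 0.0162) and Oxct1 by 1.44 (SE 0.42, adjusted p = 0.0345). The fitted log2 changes of the others were -0.54 for Acat1 (adjusted p = 0.211), 0.53 for Slc16a1 (adjusted p = 0.340), -0.995 for Pdk4 (adjusted p = 0.290) and -0.42 for Angptl4 (adjusted p = 0.222). The call for Oxct1 was lost without replicate 3, 4 or 5 of day 1 or replicate 1, 3 or 4 of day 3, with log2 fold changes from -1.44 to -1.23 and adjusted p from 0.0714 to 0.0848. Within the 3-digit libraries, 0 of the 6 genes passed edgeR's test, against 13.9% of all genes. At an unadjusted p under 0.05 the 3-digit comparison again held none of the 6, the lowest p being 0.0616 for Bdh1, where 4229 of the 14300 genes tested were under it.

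Divided by the length of its exons, which allows levels of different genes to be compared, Oxct1 led at day 0 with 673 ± 25.4 CPM per kb (SD, n = 4). Acat1 followed at 345 ± 27.8 CPM per kb, Bdh1 at 92.3 ± 5.63 and Angptl4 at 27.3 ± 4.69 (SD, n = 4 for each). Each of these was separate from its neighbours in the order, while Slc16a1 at 14.1 ± 0.476 and Pdk4 at 13.8 ± 3.26 CPM per kb overlapped. At day 1 Pdk4 came to the top of the order with 368 ± 235 CPM per kb (SD, n = 5), ahead of Oxct1 with 302 ± 130, Acat1 with 167 ± 46.9 and Angptl4 with 95.2 ± 26.7. At day 3 Pdk4 again had the highest mean, 185 ± 155 CPM per kb (SD, n = 5). In the 3-digit libraries of that day its mean was 81.3 CPM per kb, below Oxct1 at 154 and Acat1 at 149. Neighbouring genes overlapped at both later days, with the exception of Angptl4 and Slc16a1 at day 1. The ratio of Pdk4 to Oxct1 per length had a median of 0.0217 at day 0, 1.41 at day 1 and 1.60 at day 3, and at day 3 it ran from 0.108 in the lowest library to 9.48 in the highest.

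Among the pyruvate dehydrogenase kinases, Pdk4 rose at day 1 while the other three fell. Per length, Pdk4 made up a median of 11.2% of the summed level of Pdk1, Pdk2, Pdk3 and Pdk4 at day 0, 84.5% at day 1 and 64.7% at day 3. Its share ran 8.09% to 13.6% at day 0, 67.9% to 93.1% at day 1 and 28.1% to 90.2% at day 3, so the days after IRI did not overlap with day 0. Pdk2, the leading kinase of the uninjured kidney, stood at 75.8 ± 7.16 CPM per kb (SD, n = 4) at day 0, 38.4 ± 9.27 (SD, n = 5) at day 1 and 51.9 ± 15.8 (SD, n = 5) at day 3. At day 1 Pdk1, Pdk2 and Pdk3 fell by 1.20, 0.98 and 1.07 on the log2 scale (adjusted p = 0.00696, 0.00344 and 0.00118 by edgeR). At day 3 only Pdk3 among them was called (log2 fold change -1.51, adjusted p = 0.000176 by edgeR), while Pdk1 had 0.54 (adjusted p = 0.190) and Pdk2 -0.55 (adjusted p = 0.0697).

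**Figure D3:**
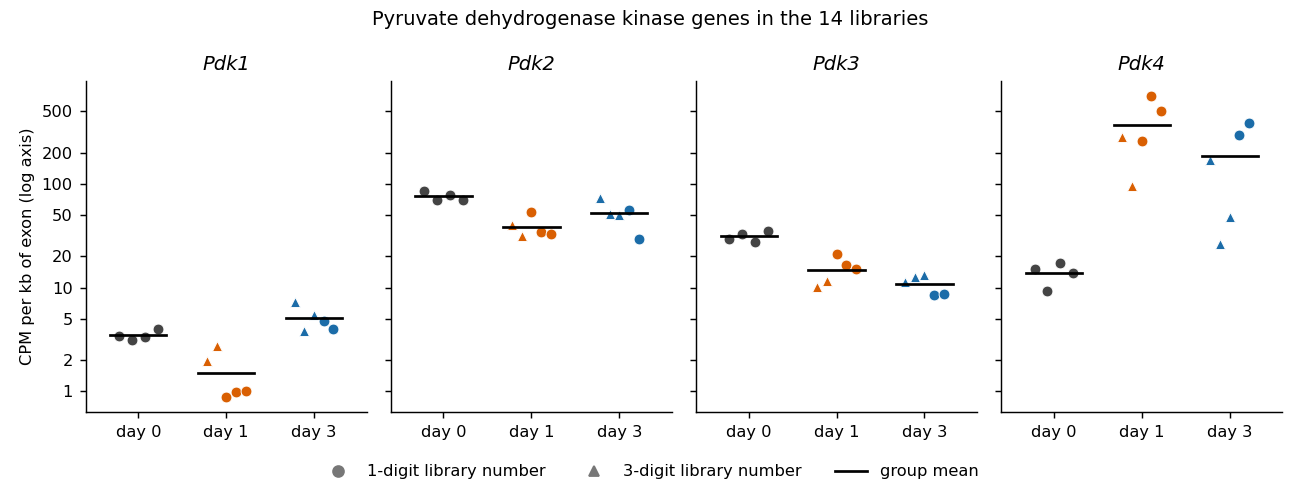
CPM per kb of exon on a log axis for the 4 pyruvate dehydrogenase kinase genes, 1 point per library, with circles and triangles for 1-digit and 3-digit library numbers and a black line at the mean of each day. Pdk4 moves from a mean of 13.8 at day 0 to 368 at day 1 and 185 at day 3, while Pdk2 goes from 75.8 to 38.4 and 51.9.

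The day 1 and day 3 libraries were then compared by library number format within each day, 3-digit minus 1-digit, with 5 groups of day and format in the model. At day 1, Oxct1 was lower in the 3-digit libraries (log2 difference -1.21, SE 0.32, adjusted p = 0.0107 by edgeR), the only 1 of the 6 genes called, against 35.0% of all genes. At day 3, Oxct1 was higher in the 3-digit libraries (1.69, SE 0.32, adjusted p = 0.00730), as was Acat1 (1.21, SE 0.25, adjusted p = 0.00943), and Pdk4 was lower (-2.07, SE 0.64, adjusted p = 0.0408), which made 3 of 6 called by edgeR against 18.5% of all genes. The format difference itself changed between the days for Oxct1 and Acat1, 2 of the 6 genes against 17.6% of all genes in edgeR's test of that change. The groups did not overlap for 2 of the 6 genes at day 1 (60.7% of all genes) and for 5 of 6 at day 3 (41.4% of all genes). Leaving out replicate 1 or 2 of day 1 ended the Oxct1 call at day 1, at -1.29 and -1.15. Leaving out replicate 5 of day 3 ended the calls of Oxct1 and Acat1 at day 3, at 1.46 and 0.81. Each of these fits leaves 1 library in a format of that day, which is assumed to vary like the other groups. The Pdk4 call at day 3 was lost without replicate 1, 2 or 3 of day 0, replicate 5 of day 1 or replicate 2, 3, 4 or 5 of day 3, with log2 differences from -2.25 to -1.65.

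**Figure D4:**
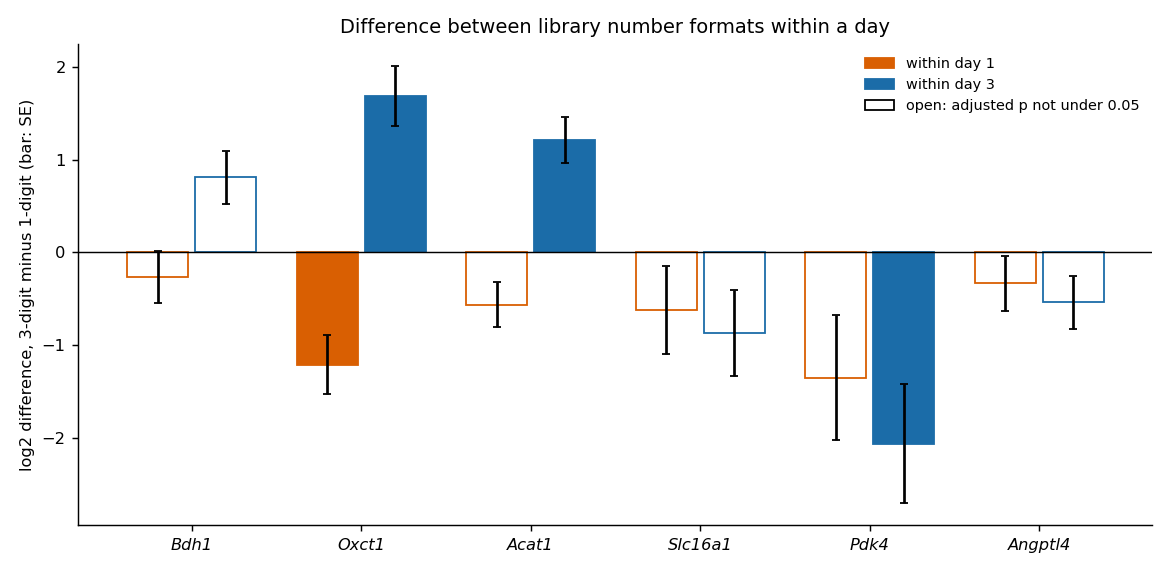
Log2 difference of each gene between 3-digit and 1-digit libraries within day 1 and within day 3, with bars of 1 standard error. Filled columns have an adjusted p under 0.05 by edgeR and open columns do not. The Oxct1 columns point in opposite directions, -1.21 at day 1 and 1.69 at day 3.

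Against day 0, the direction of all 6 genes was the same in each format. In the 1-digit libraries, which share the format of day 0, edgeR called 6 of 6 genes at day 1 and 6 of 6 at day 3, against 58.5% and 53.7% of all genes. Within this format Pdk4 rose by 5.14 on the log2 scale at day 1 and 4.62 at day 3, and Oxct1 fell by 3.81 at day 3. The same log2 fold changes in the 3-digit libraries were smaller, at 3.79 and 2.56 for Pdk4 and -2.13 for Oxct1. From day 1 to day 3 the 1-digit libraries fell in Bdh1 (-1.63, adjusted p = 0.00155), Oxct1 (-3.03, adjusted p = 0.000113) and Acat1 (-1.58, adjusted p = 0.000818), 3 of 6 genes against 32.0% of all genes by edgeR. In the 3-digit libraries, whose comparison with day 0 mixes formats, 5 of 6 genes were called at day 1 (41.6% of all genes) and 6 of 6 at day 3 (32.4% of all genes), the exception being Slc16a1 at day 1 (log2 fold change 0.86, adjusted p = 0.128 by edgeR). Between days 1 and 3 the 3-digit libraries gave -0.13 for Oxct1 (adjusted p = 0.810), -0.56 for Bdh1 (adjusted p = 0.193) and 0.20 for Acat1 (adjusted p = 0.621).

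Markers of the proximal tubule were measured beside the enzyme genes. Their 13 genes summed to 22791 to 57415 CPM at day 1 and 11536 to 26006 CPM at day 3. By edgeR's test 3 of 13 were lower at day 1 and 6 of 13 at day 3, against 18.7% and 13.8% of all genes, and none was higher. At day 1 the sums were 22791 and 34504 CPM in the 3-digit libraries against 44870 to 57415 CPM in the 1-digit libraries, the same ordering as for Oxct1. At day 3 the sums of the formats overlapped. Single markers differed by format on both days in edgeR's test, with 6 of 13 lower and none higher in the 3-digit libraries at day 1 (median log2 difference -0.84) and 7 of 13 higher and none lower at day 3 (median 1.17), against 35.0% and 18.5% of all genes called in either direction. The change of the format difference between the days was called for 9 of 13 markers, all upward as for Oxct1 and Acat1 (median 2.56), against 17.6% of all genes. Across the 14 libraries, which share the 3 days, the log2 level of Oxct1 had a Pearson correlation of 0.952 with the log2 marker sum, Bdh1 0.881 and Acat1 0.839. Slc16a1, Pdk4 and Angptl4 had -0.648, -0.345 and -0.384. Over the 10 libraries of days 1 and 3 alone the values were 0.932 for Oxct1, 0.935 for Bdh1, 0.738 for Acat1 and -0.401 for Slc16a1, and those of Pdk4 and Angptl4 had the opposite sign, at 0.32 and 0.375. In replicate 3 of day 1, whose marker sum of 57415 CPM was above all of day 0, Bdh1 stood at 127 CPM and Oxct1 at 1718 CPM, both below day 0. This is 1 library, and a sum is set mostly by its most abundant genes. In the 1-digit libraries of day 1, edgeR called 4 of 13 markers lower than at day 0 and 0 higher (median -0.24). Of all genes, 58.5% were called there in either direction. The part of these markers in the results was not tested.

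**Figure D5:**
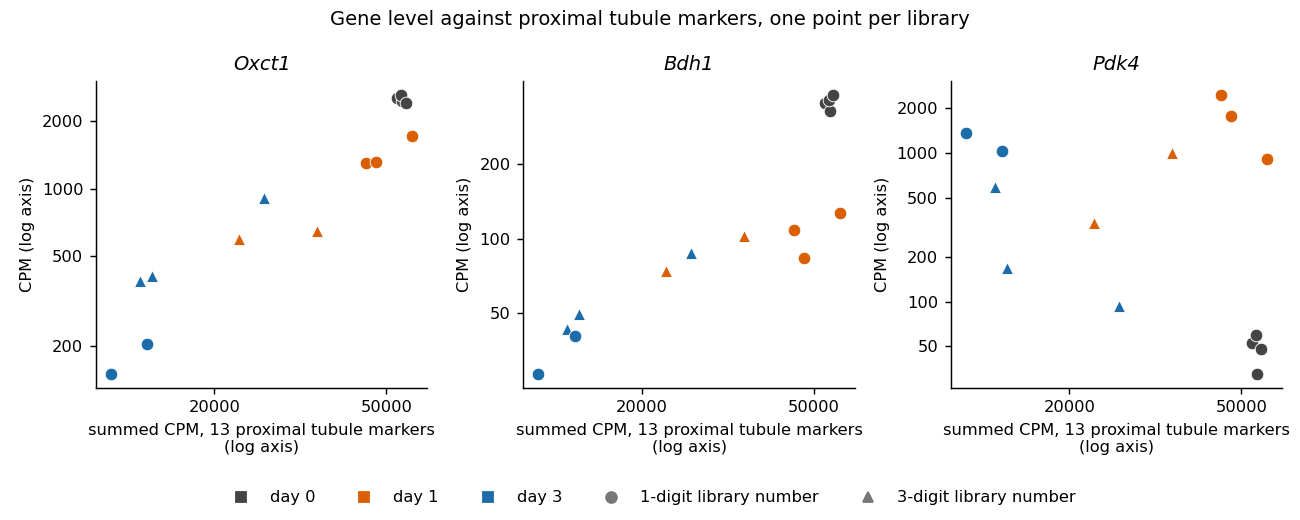
CPM of Oxct1, Bdh1 and Pdk4 against the summed CPM of 13 proximal tubule markers, both on log axes, 1 point per library, coloured by day, with circles and triangles for 1-digit and 3-digit library numbers. The day 0 points hold the highest Oxct1 and Bdh1, above the 1-digit library of day 1 with the highest sum, while the 1-digit libraries of day 1, with sums of 44870 to 57415 CPM, have 910.3 to 2457 CPM of Pdk4.

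Markers of other cell types were summed in the same way. Adipose tissue, a site of high Pdk4 and Angptl4 expression, had a marker sum over 8 genes of 57.8 to 180.3 CPM at day 0, 81.6 to 179 at day 1 and 44.0 to 241 at day 3, and 0 of its 3 markers tested passed edgeR's test in either comparison with day 0. With the format in the model 2 of these 3 were higher than at day 0 in the 1-digit libraries of day 3, where the sums of 196 and 241 CPM were above all of day 0 (53.7% of all genes called in either direction), and 1 of 3 in the 3-digit libraries of day 1 (41.6%), with sums of 169.8 and 179 CPM. Of the sums in the 1-digit libraries of day 3, Fabp4 alone held 179 and 219 CPM and Cidec 16.1 and 20.5. The remaining adipose genes each had at most 2.13 CPM in those libraries, with Retn and Lep at 0. The 6 skeletal muscle markers summed to at most 1.63 CPM in any library, with Myh4 and Myh1 listed at 0 throughout day 1. The 6 markers of fibroblasts and pericytes summed to 94.0 to 100.1 CPM at day 0, 123 to 343 at day 1 and 380.2 to 817 at day 3, and the 7 macrophage markers to 126 to 205, 78.1 to 135 and 125 to 433 CPM. Of these 7, edgeR called 2 higher and 1 lower at day 1, against 23.3% and 18.7% of all genes. At day 3 it called 3 higher and 1 lower, against 19.5% and 13.8%. Mean Csf1r went from 90.2 CPM at day 0 to 28.8 at day 1, and mean Cd68 from 1.98 to 23.7. The smooth muscle sum was 142 to 169.8 CPM at day 0, 309 to 578 at day 1 and 289 to 958 at day 3, and the endothelial sum 228 to 287, 303.5 to 524 and 157 to 626. At day 1 the fibroblast, smooth muscle and endothelial sums lay wholly above those of day 0, and edgeR called 2 of 6, 3 of 6 and 2 of 6 of their markers higher, where 23.3% of all genes were. At day 3 these counts were 4 of 6, 3 of 6 and 0 of 6, against 19.5%. The endothelial sums of day 3 split by number format. They were 364 and 626 CPM with 1 digit, above all of day 0, and 157 to 266 CPM with 3. Macrophage sums of day 3 split the other way. They were 124.7 and 125.2 CPM with 1 digit and 256 to 433 CPM with 3, the latter above all of day 0. By format, 5 of 6 smooth muscle markers were higher in the 3-digit libraries at day 1 and 3 of 6 lower at day 3, against 35.0% and 18.5% of all genes called in either direction. The thick limb and distal tubule markers fell from a sum of 7457 to 9876 CPM at day 0 to 2341 to 3686 CPM at day 3, where 5 of 6 were lower by edgeR against 13.8% of all genes. Of the red blood cell markers the 4 globin genes were listed at 0 in all libraries, where unique mapping can lose genes with near-identical copies, and the other two summed to 55.6 to 76.8 CPM at day 0 and 8.65 to 19.5 at day 3. The part of these cells in the results was not tested.

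The other genes of ketone body metabolism were called in both directions. Of 9 listed, 6 passed the filter, with 2 higher and 1 lower at day 1 and 2 higher and 2 lower at day 3 by edgeR, and medians of -0.29 and -0.19 on the log2 scale against 0.01 and 0.05 for all genes. Of all genes, 23.3% were higher and 18.7% lower at day 1, and 19.5% and 13.8% at day 3. Aacs, the cytosolic enzyme that activates acetoacetate for lipid synthesis, fell from 190.1 to 293 CPM at day 0 to 38.3 to 146 at day 1 and 33.0 to 109.9 at day 3 (adjusted p = 0.00152 and 0.00179 by edgeR). Bdh2, a cytosolic dehydrogenase, fell at day 3 (-1.21, adjusted p = 0.0274). Acat3, a cytosolic thiolase that is nearly identical to Acat2 so that their counts are uncertain, was at 232 and 207 CPM where day 1 libraries had 3-digit numbers and at 25.0 to 37.9 CPM where they had 1 digit, against 26.5 to 30.4 CPM at day 0. At day 3 Acat3 was above day 0 in all libraries, at 156, 43.0 and 83.0 CPM with 3 digits and 160 and 137 CPM with 1. Hcar2, a receptor for beta-hydroxybutyrate, had 1 to 6 reads per library at day 0, 10 to 48 at day 1 and 7 to 27 at day 3, so its rise (adjusted p = 0.00160 and 0.00766 by edgeR) rests on few reads.

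The steps that burn the acetyl-CoA made from ketone bodies come next. Of 13 genes of succinyl-CoA and citric acid cycle metabolism, 6 were lower at day 1 and 7 at day 3 by edgeR, against 18.7% and 13.8% of all genes, none was higher, and the medians were -0.40 and -0.54 against 0.01 and 0.05 for all genes. Ogdh, a subunit of the oxoglutarate dehydrogenase complex, fell by 1.09 and 1.18 on the log2 scale (adjusted p = 0.00575 and 0.00496), and Sdha of succinate dehydrogenase by 0.63 and 0.91 (adjusted p = 0.0333 and 0.00686). The falls of Oxct1, -1.16 and -2.59, stand beside these.

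Among 9 tested genes of monocarboxylate transport besides Slc16a1, edgeR called 1 higher and 4 lower at day 1 and 2 higher and 2 lower at day 3, with medians of -0.87 and -0.38. The shares of all genes called higher and lower were 23.3% and 18.7% at day 1 and 19.5% and 13.8% at day 3, so the day 3 counts are near the background. Slc16a7, which encodes the related transporter MCT2, fell from 84.2 to 108 CPM at day 0 to 16.5 to 27.3 at day 1 and 18.8 to 21.2 at day 3 (log2 fold changes -2.20 and -2.29, adjusted p = 1.19e-06 and 1.02e-06). The change of Slc16a7 was thus opposite in sign to that of Slc16a1 on both days. Slc5a8, a sodium-coupled carrier, fell by 2.16 and 1.84 (adjusted p = 0.0133 and 0.0344). Bsg, the partner protein that MCT1 needs at the membrane, had -0.30 and -0.38 (adjusted p = 0.106 and 0.0522), and Slc5a12 -0.87 and 0.64 (adjusted p = 0.271 and 0.450).

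In the control of pyruvate dehydrogenase, 12 genes besides Pdk4 were tested, of which 1 was higher and 8 lower at day 1 and 0 higher and 7 lower at day 3 by edgeR, with medians of -0.63 and -0.48. Among all genes 23.3% were higher and 18.7% lower at day 1, and 19.5% and 13.8% at day 3. Pdp2 and Pdpr, a phosphatase that reactivates the complex and the regulator of such phosphatases, fell by 1.64 and 2.18 at day 1 (adjusted p = 0.00140 and 1.71e-06). At day 3 they had -0.29 and -0.37 (adjusted p = 0.490 and 0.0763), and Pdpr was higher at day 3 than at day 1 (1.81, adjusted p = 3.05e-05). Pdha1, the catalytic subunit that Pdk4 phosphorylates, fell by 0.51 and 0.50 (adjusted p = 0.0102 and 0.0147). Mpc2, part of the mitochondrial pyruvate carrier, fell by 0.76 and 0.72 (adjusted p = 0.00345 and 0.00587).

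Of 9 tested genes of lipoprotein lipase control besides Angptl4, edgeR called 2 higher and 1 lower at day 1 and 2 higher and 2 lower at day 3, with medians of 0.40 and -0.05. These counts are near the shares of all genes, 23.3% higher and 18.7% lower at day 1 and 19.5% and 13.8% at day 3. Lpl, the lipase that Angptl4 inhibits, fell from 503 to 822 CPM at day 0 to 91.4 to 397 at day 1 and 78.6 to 178 at day 3 (log2 fold changes -1.26 and -2.22, adjusted p = 0.0177 and 0.00106). Gpihbp1, which anchors the lipase to capillaries, rose by 1.92 and 2.35 (adjusted p = 0.0205 and 0.0105). At day 3 Gpihbp1 stood at 75.1 and 107 CPM in the 1-digit libraries but at 15.1, 11.5 and 15.4 CPM in the 3-digit libraries, against 7.01 to 13.5 CPM at day 0. Pnpla2, the lipase that opens stored triglyceride, rose by 1.76 and 1.44 (adjusted p = 0.00548 and 0.0188). Its day 3 libraries held 339, 84.1, 108, 409 and 395 CPM against 89.3 to 106 CPM at day 0, so replicates 2 and 3 were near the day 0 level.

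Targets and genes of the PPAR pathway were mixed. Of 27 tested, 7 were higher and 5 lower at day 1 and 11 higher and 5 lower at day 3 by edgeR, where 23.3% and 18.7% of all genes were higher and lower at day 1 and 19.5% and 13.8% at day 3. The list's medians were 0.02 and 0.58 against 0.01 and 0.05 for all genes. The day 1 median had opposite signs by format, at -0.28 in the 1-digit libraries (6 upward and 8 downward calls, 58.5% of all genes called) and 0.58 in the 3-digit libraries (10 and 5, 41.6% of all genes called). Between the formats at day 1, 9 of 27 were higher with 3 digits and 0 lower, against 35.0% of all genes, and the format difference changed upward for 1 and downward for 11 by day 3 (median -0.94), against 17.6%. Plin2, a coat protein of lipid droplets, rose from 23.8 to 27.2 CPM at day 0 to 754 to 4938 at day 1 and 202 to 4970.2 at day 3 (log2 fold changes 6.73 and 5.95, adjusted p = 0.000202 and 0.000503). Cyp4a14, a fatty acid hydroxylase with close paralogs that make its counts uncertain, was at 561 and 613 CPM where day 1 libraries had 3-digit numbers but at 12.1 to 81.6 CPM where they had 1 digit, and rose at day 3 (7.05, adjusted p = 0.00178). In those 1-digit libraries of day 1 Pdk4 was at 910.3 to 2457 CPM, Angptl4 at 249.8 to 477 CPM and Plin2 at 754 to 2790 CPM. The part of the PPAR pathway in the results was not tested. Slc27a2, a fatty acid transport protein and the most abundant of the list at day 0, fell by 0.93 and 1.21 (adjusted p = 0.0185 and 0.00606). Ppara itself had -0.16 at day 1 (adjusted p = 0.741) and rose by 1.19 at day 3 (adjusted p = 0.0242).

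Of 14 genes of the glucocorticoid and FoxO response, signals that are known to raise Pdk4, edgeR called 4 higher and 3 lower at day 1 and 4 higher and 0 lower at day 3, with medians of -0.03 and 0.08, where the shares of all genes were 23.3% and 18.7% at day 1 and 19.5% and 13.8% at day 3. The day 1 counts are thus near the background, and the part of these signals in the rise of Pdk4 was not tested. Fitted by format against day 0, the day 1 calls were 4 upward and 3 downward where the number has 1 digit (median 0.27), and 0 upward and 6 downward where it has 3 (median -0.36), against 58.5% and 41.6% of all genes called in either direction. Between the formats at day 1, 7 of 14 were lower in the 3-digit libraries and none was higher, against 35.0% of all genes called in either direction. Per1 rose at day 1 (2.01, adjusted p = 0.00515), where the 1-digit libraries held 206 to 276 CPM and the 3-digit libraries 48.2 and 63.4. Txnip, a regulator of glucose uptake, rose by 0.98 and 1.14 (adjusted p = 0.0206 and 0.0126), though replicate 2 of each day was within the day 0 range, whose highest value was 509 CPM. G0s2, an inhibitor of fat breakdown, rose by 1.13 and 2.34 (adjusted p = 0.0363 and 0.00122). Fkbp5 had 0.66 at day 1 (adjusted p = 0.149) and rose by 1.34 at day 3 (adjusted p = 0.0126), and Zbtb16 rose by 1.75 at day 3 (adjusted p = 0.00340). The 3 called lower at day 1 were Tsc22d3, a glucocorticoid-induced gene (-0.97, adjusted p = 0.00424), the glucocorticoid receptor gene Nr3c1 (-0.58, adjusted p = 0.00915) and Foxo4, of the FoxO factors themselves (-0.60, adjusted p = 0.00285), and none of them was called at day 3.

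Within the 6 genes, the 3 enzymes kept close company across the 14 libraries, which share the 3 days, with Pearson correlations of log2 level of 0.934 for Bdh1 and Oxct1, 0.943 for Oxct1 and Acat1 and 0.929 for Bdh1 and Acat1. Over the 10 libraries of days 1 and 3 these were 0.937, 0.890 and 0.842. Pdk4 and Angptl4 had 0.957 over 14 libraries and 0.876 over 10. Pdk4 and Oxct1 had -0.553 over 14 libraries but 0.057 over the 10 injured ones. The genes most like each one among those with at least 10 CPM on average were C8a, Napsa and Mep1a for Bdh1 (0.979 to 0.989 over 14 libraries) and BC026585, Mccc1 and Ggt1 for Oxct1 (0.982 to 0.989). They were Glb1, Sdha and Slc3a1 for Acat1 (0.970 to 0.986), Tacc1, Dip2b and Itga6 for Slc16a1 (0.965 to 0.974), Pi15, Spsb1 and Dazap2 for Pdk4 (0.985 to 0.986), and Cd63, 2410006H16Rik and Gtf2f1 for Angptl4 (0.970 to 0.972).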

How the data were processed

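RNA was extracted from mouse kidney with TRIzol and made into Illumina TruSeq libraries. Per the labels, the submitters' processing notes name Trimmomatic (a read trimmer), STAR (an aligner) and mm10, and the authors deposited STAR's table of raw counts for each of 14 libraries, not normalized. Tool versions, like the gene annotation, are not given in the sources used here. STAR counts a read only where it maps uniquely, so genes with near-identical copies are undercounted. The column of reads on the opposite strand, which held 98.5% to 98.7% of strand-assigned reads, was used. Rows without a gene (4 per table, 29.0% to 38.3% of reads) were dropped. Depth on genes ranged from 12485579 to 20476979 reads.

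Counts were analysed with edgeR 4.0.16 (filterByExpr by day, TMM, quasi-likelihood test, 1 term per day over all 14 libraries) in R 4.3.3, with Benjamini-Hochberg adjustment over 14300 genes and a threshold of 0.05. Standard errors come from the F value. A second fit had a term for each day and number format. Log2 CPM used a prior count of 2, and differences between days were also tested by exact permutation. CPM per kb used merged exon lengths of GENCODE M21 (GRCm38). In simulated counts for 14171 genes with 200 changed by a log2 fold change of 2, edgeR recovered 174 with 5 false calls. RefSeq promoters (GRCm38.p6) were trimmed at the first annotated exon, and 4 of the 6 genes had an entry.

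Alternatives changed the counting column (unstranded), the scaling (RLE, or none beyond total counts), the filter (none), the tool (DESeq2 1.42.0), the model (a replicate block, a format term), the libraries (the days compared, either format alone, 1 library left out) and the prior count (0.5). The contrast of 3-digit libraries in the second fit was added after seeing the data. The members and the 17 gene lists (166 of 167 listed genes were in the files) were chosen with earlier results of these data known. Named genes were, per pathway list, the 2 most abundant and the 2 with the greatest change among those called, and for each member the 3 genes with the highest correlation. Values of Ppara, Pdk1, Pdk2, Tsc22d3, Nr3c1 and Foxo4, of Acat3, of Pdk3 at day 1, of Pdp2 and Pdpr after day 1, and of Aacs at day 3 lie outside this rule and were chosen after they were seen. Some genes that the rule names are not reported here.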

Additional observations from a re-analysis of the deposited data

Results flagged for a closer look

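The difference between library number formats, 3-digit minus 1-digit, changed between day 1 and day 3 for 2 of the 6 genes. For Oxct1 the format difference was 2.90 higher on the log2 scale at day 3 than at day 1 (SE 0.45, adjusted p = 0.00157 in edgeR's test of that difference), with all 3-digit libraries below all 1-digit libraries at day 1 and above them at day 3. For Acat1 it was 1.77 higher (SE 0.35, adjusted p = 0.00476 by the same test), with the same ordering. Both results kept their call in each of the 14 fits that left out 1 library, from 2.39 to 3.13 for Oxct1 and from 1.39 to 2.28 for Acat1. The injured tubule markers summed to 31256 and 37021 CPM at day 1 where the number has 3 digits against 8461 to 16323 CPM where it has 1, and at day 3 to 6667 to 33364 CPM against 36655 and 44400 CPM. Of the 13 proximal tubule markers, edgeR called 9 for the same change, all upward (median 2.56), against 17.6% of all genes. The part of these markers in the results was not tested. No single library stood apart from its day for any of the 6 genes by Dixon's criterion, in 18 groups of 4 or 5 libraries where chance gives about 0.9.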

How the results depend on the processing

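Against day 0, Bdh1, Acat1, Pdk4 and Angptl4 kept their direction and stayed under the threshold in all fits run, 14 that left out 1 library and 11 others, at day 1 and at day 3, as did Oxct1 and Slc16a1 at day 3. Exceptions follow, and their cause was not tested. At day 1 Oxct1 was -1.12 with the unstranded column (adjusted p = 0.0508 by edgeR) and ran from -1.36 to -0.9995 with 1 library left out, and Slc16a1 was 0.86 in the 3-digit libraries, alone or as a contrast (adjusted p = 0.150 or 0.128), and ran from 1.03 to 1.40. From day 1 to day 3, Oxct1 was -1.23 without TMM, -1.44 with only these days, -1.58 with the format as a term, -0.13 with only the 3-digit libraries and in their contrast, and -1.95 to -1.23 with 1 library left out. Bdh1 was -0.996 with only these days and -0.56 in the 3-digit libraries, alone and in their contrast. With only the 1-digit libraries Acat1 became called at -1.59 and Slc16a1 at 0.76. Acat1 had 0.19 in the 3-digit libraries alone, opposite in sign and not called. The count of genes changed from day 1 to day 3, 2276, was 831 with only these days, 5194 with the 1-digit libraries and 1269 to 3350 with 1 library left out. At day 3 against day 0 it was 8119 with the 1-digit libraries.

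For the number format, DESeq2 gave -0.60 for Acat1 at day 1, 0.81 for Bdh1 at day 3 and 1.11 for the change of Bdh1 between the days, each under the threshold, and Bdh1 at day 3 was 0.86 without TMM. With 1 library left out, the day 1 differences ran from -1.29 to -1.07 for Oxct1, -0.73 to -0.39 for Acat1 and -2.36 to -0.77 for Pdk4. The day 3 differences ran from 0.43 to 1.09 for Bdh1, 1.18 to 1.92 for Oxct1, 0.81 to 1.71 for Acat1, -1.63 to -0.49 for Slc16a1, -3.18 to -1.65 for Pdk4 and -0.82 to -0.32 for Angptl4, and the change of Bdh1 from 0.70 to 1.35. Counts of genes by format ran from 1997 to 5602 at day 1, 91 to 4771 at day 3 (91 without replicate 5 of day 3, which leaves 1 library of 1-digit format that is assumed to vary like the other groups) and 1260 to 3148 for their difference, and genes changed from day 1 to day 3 in the 1-digit libraries from 2794 to 5117. In the permutation tests Oxct1 ran from -1.46 to -1.08 at day 1 and -1.96 to -1.31 between days 1 and 3, and Slc16a1 from 1.38 to 1.95 at day 3. The call was lost without any 1 library of day 0 for Oxct1 at day 1 (exact permutation p = 0.0536), without replicate 3, 4 or 5 of day 1 for Oxct1 between the days (exact permutation p = 0.0635), and for Slc16a1 at day 3 without replicate 2, 3 or 4 of day 0 or 1, 3, 4 or 5 of day 3 (exact permutation p of 0.0536 or 0.0571).

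The replicate numbers showed no clear pairing of the libraries (correlation of deviations from -0.17 to 0.26 over 13 same-numbered pairs, with 4 over 0.1, and 4 of 14 libraries nearest to their own number). This check cannot exclude pairing, since the deviations from each day also hold the differences between formats. With the replicate block Oxct1 at day 1 was -1.05 (adjusted p = 0.123), the counts of changed genes were 5162, 4103 and 2044, and no other call of the 6 genes changed. Leaving out TMM moved the median log2 change of all genes from 0.05 to 0.19 at day 3 and from 0.02 to 0.17 between days 1 and 3, and the split of calls from 2783 higher and 1974 lower to 3625 and 1286 at day 3, from 1219 and 1057 to 1721 and 487 between the days, from 2656 and 2345 to 3909 and 1439 by format at day 1, and from 2357 and 2214 to 3688 and 1296 between days 1 and 3 in the 1-digit libraries, with the direction of all 6 genes kept. Read depth was not a limit for these genes, which had at least 384 reads in each library, while 2 to 5 libraries per group limit the precision.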
